A study of Mus musculus with 2 samples.

Results

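The 10 immediate early genes described here are Fos, Fosb, Jun, Junb, Egr1, Egr2, Arc, Npas4, Ier2 and Nr4a1, taken by name from the 55536 genes listed in the deposited M21 gene table. They were measured by polyA RNA-seq in whole forebrain of newborn mice of strain B6NCrl, aged 0 days, with no treatment named. The libraries make 1 group of 2, pup 1 (replicate 1) and pup 3 (replicate 2), each made from 1 forebrain and 10 ng of RNA. One donor identifier stands for both pups in the labels, and sex was not recorded. No second group exists, so the data show how high each gene stood and how far the 2 pups differed, and no test and no p-value can be given.

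Immediate early genes are transcribed within minutes of a signal from outside the cell, without the need for new protein, because their activators are already present and wait for phosphorylation. In neurons the signal is typically calcium entry through synaptic receptors and channels, which reaches the promoters through the kinases that act on CREB, on SRF with its partners and on MEF2. The products are mostly short-lived transcription factors of the AP-1, EGR and NR4A families and Npas4, while Arc is a synaptic protein, and their messages are unstable and decay soon after the signal ends.

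All 10 genes had reads in both pups, and 7 reached a level of 1 TPM (a level scaled to gene length and to the library total) in each pup. Jun was the highest in both pups, followed by Egr1 and Ier2. Egr2, Npas4 and Fosb stood under 1 TPM in both. The median of the 10 genes' mean levels was 7.38 TPM (7.34 in pup 1 and 7.42 in pup 3, SD 0.0566), beside 3.77 TPM over all 22028 protein-coding genes and 16.32 TPM over the 13474 of them with a mean of at least 1 TPM. Summed over the 10 genes, the level was 104.8 in pup 1 and 108.43 TPM in pup 3. In a bulk sample, fewer cells that express a gene and less RNA per cell cannot be told apart.

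The libraries held 40964891 expected counts in pup 1 and 41230878 in pup 3, of which the 10 genes took 0.0172% and 0.0194%. Over 9689 genes with at least 1000 counts the median chi-square between the libraries was 18.66, against 0.455 under counting noise alone, so they were not counted as 1 library listed under 2 names. Among the 15463 genes with a mean of at least 1 TPM, 79.65% had a lower TPM in pup 3, and the median log2 ratio of pup 3 over pup 1 was -0.24. The forebrain label was met by its markers: all 8 listed forebrain genes, Emx1 among them, reached 1 TPM in both pups. Their levels were not alike in the pups. Emx2 was over 2-fold lower in pup 3 (9.26 and 3.75 TPM in pups 1 and 3), while Emx1 (23.80 and 32.62 TPM) was higher. Of 8 midbrain and hindbrain genes only Slc6a4 did, and Hoxa2, Hoxb2 and Hoxb4 were listed at 0 in both. The 6 listed blood genes, of which 4 are globin genes, summed to 2178 in pup 1 and 3084 TPM in pup 3.

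**Figure D1:**
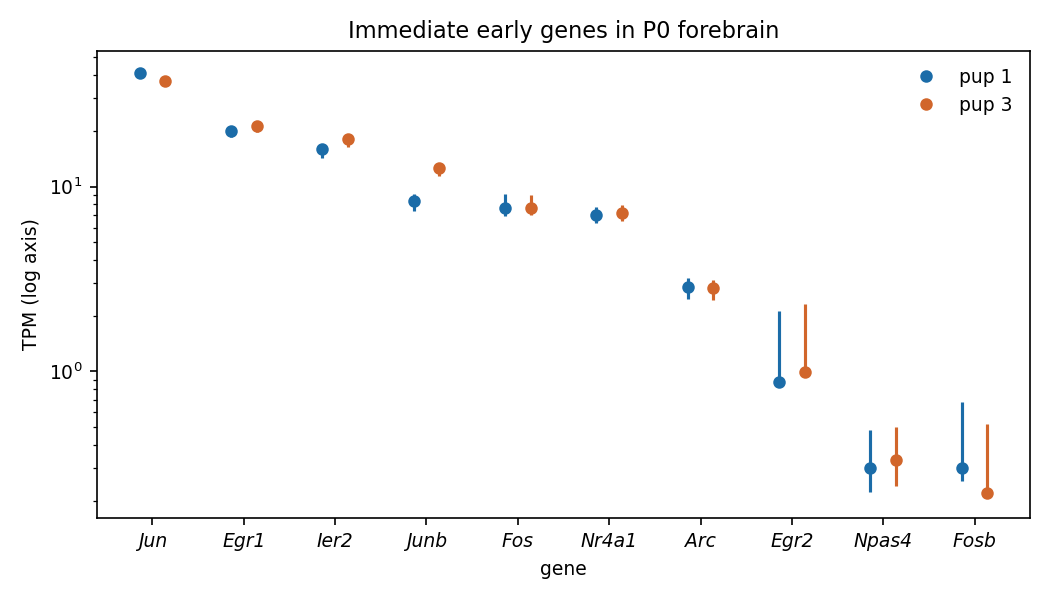
Level of each gene in pup 1 and pup 3 (points, TPM on a log axis), with the deposited credibility interval of each level as a vertical line; genes are ordered by mean level. Jun stood near 40 TPM and Fosb and Npas4 near 0.3 TPM, and the intervals widen towards the low genes.

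The JUN and FOS proteins pair with each other through leucine zippers to form AP-1, the transcription factor that binds the TGANTCA site. Jun (ENSMUSG00000052684, chr4:95049034-95052222 in mm10, strand -) is a single-exon gene whose product can pair with itself or with a FOS protein. Its level was 41.37 in pup 1 and 37.33 TPM in pup 3 (mean 39.35, SD 2.86, n = 2 pups), from 3337.47 and 3393.57 expected counts. Jun was lower in pup 3 on the TPM scale, and the deposited credibility intervals, 38.9 to 41.7 TPM and 35.3 to 37.7 TPM, did not overlap. Per library total, with no scaling to length, the count ratio of pup 3 over pup 1 was 1.01 (exact 95% interval 0.963 to 1.06, counting error only). Jun alone made up 39.5% of the 10 genes' summed TPM in pup 1 and 34.4% in pup 3, and its mean exceeded that of 82.4% of protein-coding genes.

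Junb (ENSMUSG00000052837, chr8:84974484-84978718, strand -) encodes a JUN protein that activates weakly as a pair with itself and can restrain Jun. It was at 8.36 in pup 1 and 12.61 TPM in pup 3 (mean 10.5, SD 3.01), from 373 and 631.07 expected counts. Of the 10 genes Junb differed most between the pups: it was higher in pup 3, with credibility intervals of 7.41 to 9.11 TPM and 11.4 to 13.4 TPM that did not overlap. The count ratio was 1.68 (exact 95% interval 1.48 to 1.92), and the log2 ratio was 0.54. Jun thus stood 4.95-fold above Junb in pup 1 and 2.96-fold above it in pup 3.

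Fos (ENSMUSG00000021250, chr12:85473890-85477273, strand +), whose protein cannot pair with itself and needs a JUN partner, was at 7.66 TPM in both pups, from 366 and 416 expected counts. Its credibility intervals were nearly the same, 6.94 to 9.07 TPM in pup 1 and 6.99 to 8.98 TPM in pup 3. Fosb (ENSMUSG00000003545, chr7:19302696-19310051, strand -), the relative best known for a truncated, long-lived form, was at 0.30 in pup 1 and 0.22 TPM in pup 3 (mean 0.26, SD 0.0566). These values rest on 25 and 24 expected counts, and the count ratio of 0.954 had an exact 95% interval of 0.522 to 1.74, so a difference between the pups was not detectable at this depth. Its posterior means in the same table were higher, 0.46 and 0.35 TPM. Within each library Fos stood 25.5-fold (pup 1) and 34.8-fold (pup 3) above Fosb, and Jun 5.40-fold and 4.87-fold above Fos. Among these 4 genes the pups agreed on the order Jun, Junb, Fos and Fosb.

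The promoters of the 4 AP-1 genes are shown up to 250 bases before the start site. They place the known signal-dependent elements found within that reach beside genes whose levels spread from 0.26 to 39.35 TPM. Each promoter runs from 250 bases before the RefSeq start site (build GRCm38.p6) to the first annotated exon base, 5′ to 3′ on the gene's strand. Capitals mark matches, on either strand, to the CRE palindrome TGACGTCA and its half-site TGACG, the AP-1 site (TGACTCA or TGAGTCA), the elements TGACATCA and TTACCTCA known from the Jun promoter, the EGR site GCGNGGGCG, the TATA box TATAAA, and the MEF2 site and CArG box by their consensus.
Jun promoter, chr4:95052223-95052472, strand -: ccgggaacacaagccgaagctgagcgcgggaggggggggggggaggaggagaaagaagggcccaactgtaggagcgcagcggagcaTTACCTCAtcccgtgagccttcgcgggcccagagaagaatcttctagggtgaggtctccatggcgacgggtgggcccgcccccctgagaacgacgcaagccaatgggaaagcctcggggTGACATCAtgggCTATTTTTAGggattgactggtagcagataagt
Junb promoter, chr8:84978719-84978998, strand -: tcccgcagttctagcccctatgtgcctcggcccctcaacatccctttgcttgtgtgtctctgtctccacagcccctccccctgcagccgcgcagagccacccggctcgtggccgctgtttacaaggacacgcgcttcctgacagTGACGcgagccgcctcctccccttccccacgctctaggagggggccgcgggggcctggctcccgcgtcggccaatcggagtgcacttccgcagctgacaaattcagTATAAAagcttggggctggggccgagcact
Fos promoter, chr12:85473640-85473889, strand +: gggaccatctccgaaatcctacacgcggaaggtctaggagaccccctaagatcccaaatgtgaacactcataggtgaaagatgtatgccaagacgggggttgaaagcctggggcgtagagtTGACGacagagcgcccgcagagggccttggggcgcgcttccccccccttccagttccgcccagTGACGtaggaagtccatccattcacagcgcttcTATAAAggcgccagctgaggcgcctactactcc
Fosb promoter, chr7:19310052-19310295, strand -: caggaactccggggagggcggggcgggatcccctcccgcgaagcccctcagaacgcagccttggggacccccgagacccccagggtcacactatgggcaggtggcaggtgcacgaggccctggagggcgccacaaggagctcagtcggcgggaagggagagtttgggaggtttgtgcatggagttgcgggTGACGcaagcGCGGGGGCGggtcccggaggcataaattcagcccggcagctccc

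The Jun window held both Jun-type elements, TTACCTCA and TGACATCA, which were searched because they are known from this promoter. It also held a MEF2 site just downstream of the latter, and no CRE half-site. At least 1 of the Jun-type elements occurs in 4.47% of all 32851 RefSeq promoter windows of 300 bases, and the MEF2 site in 3.19%. Junb had 1 CRE half-site and 1 TATA box, Fos 2 half-sites and a TATA box, and Fosb 1 half-site followed by an EGR site. The half-site, which the palindrome contains, occurs in 20.8% of all windows, the TATA box in 13.6% and the EGR site in 5.55%. The full palindrome (1.79% of windows) and the AP-1 site (5.2%) had no match in the windows of the members. These are matches of letters in short windows and show no binding. Sequence more than 250 bases before a start was not searched, so a missing match does not show that a gene lacks the element. Egr1, Arc and Ier2 had no window.

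The EGR proteins are zinc finger factors that bind a GC-rich site, and NAB corepressors hold them in check. Egr1 (ENSMUSG00000038418) was at 20.09 in pup 1 and 21.21 TPM in pup 3 (mean 20.65, SD 0.792), from 1605 and 1929 expected counts. It was the next highest of the 10 genes after Jun in both pups, and its mean exceeded that of 73.2% of protein-coding genes. Egr2 (ENSMUSG00000037868, chr10:67535475-67542188, strand +), known for its roles in hindbrain segments and in Schwann cell myelination, was at 0.88 in pup 1 and 0.99 TPM in pup 3 (mean 0.935, SD 0.0778), from 53 and 79 expected counts. Both values lay just under 1 TPM, and the posterior means in the same table, 1.46 and 1.64 TPM, lay above it, as did the lower end of the credibility interval in pup 3 (1.04 TPM). Egr1 thus stood 22.8-fold above Egr2 in pup 1 and 21.4-fold above it in pup 3. With posterior means the mean log2 ratio of Egr1 over Egr2 was 3.62, in place of 4.33. The count ratios of pup 3 over pup 1 were 1.19 for Egr1 (exact 95% interval 1.12 to 1.28) and 1.48 for Egr2 (1.03 to 2.14).

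Ier2 (ENSMUSG00000053560, chr8:84661331-84662852, strand -), a short single-exon gene for a nuclear protein induced by growth factors, was at 15.96 in pup 1 and 18.08 TPM in pup 3 (mean 17.02, SD 1.5). It was the third highest of the 10 genes in both pups, from 593 and 757 expected counts, with a count ratio of 1.27 (exact 95% interval 1.14 to 1.41).

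Nr4a1 (ENSMUSG00000023034, chr15:101254269-101274795, strand +), an orphan nuclear receptor also called Nur77, was at 7.02 in pup 1 and 7.18 TPM in pup 3 (mean 7.10, SD 0.113), from 441 and 497 expected counts. It stood just under Fos in both pups, and the credibility intervals of the 2 genes overlapped in each. Arc (ENSMUSG00000022602, chr15:74669083-74672570, strand -), whose message travels to dendrites and whose protein removes AMPA receptors from synapses, was at 2.86 in pup 1 and 2.82 TPM in pup 3 (mean 2.84, SD 0.0283), from 221 and 245 expected counts. Npas4 (ENSMUSG00000045903, chr19:4984355-4990316, strand -), a neuron-specific factor that responds to calcium entry and governs inhibitory synapses, was at 0.30 in pup 1 and 0.33 TPM in pup 3 (mean 0.315, SD 0.0212), from 27 and 32 expected counts. Both Arc and Npas4 stood in the lower part of the order, Arc 9.53-fold above Npas4 in pup 1 and 8.55-fold above it in pup 3.

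In order of mean level the genes ran Jun, Egr1, Ier2, Junb, Fos, Nr4a1, Arc, Egr2, Npas4 and Fosb. The pups gave the same order, apart from a tie of Npas4 and Fosb in pup 1. Of the 9 neighbouring pairs in that order only Npas4 and Fosb had pup ranges that overlapped, and with posterior means Fosb (mean 0.405 TPM) stood above Npas4 (0.36 TPM). Junb and Fos differed by 2.83 TPM, less than the sum of their SDs (3.01 TPM), and their credibility intervals overlapped in pup 1. Across all 22028 protein-coding genes, those nearest to Jun in the values of both pups were Gal3st3 (41.65 and 37.32 TPM) and Prmt7 (40.98 and 37.39 TPM). Those nearest to Fosb were Nlrc5 (0.30 and 0.22 TPM) and Cc2d2b (0.31 and 0.22 TPM). Likeness was the Euclidean distance of log2(TPM + 1) over 2 pups, and 117 genes lay within 0.1 of Jun and 229 within 0.1 of Fosb, so 2 samples do not single these genes out.

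None of the 10 genes was over 2-fold apart between the pups on the log2(TPM + 1) scale or on TPM itself, where on the former 2.83% of the 15463 genes with a mean of at least 1 TPM were; 7 of the 10 belong to that set. The median log2 ratio of the 10 genes, pup 3 over pup 1 on the log2(TPM + 1) scale, was 0.03, against -0.24 for all genes in that set. All 7 members of the set lay above its median. Egr2, Npas4 and Fosb are outside the set, and at their levels a pseudocount of 1 draws log2 ratios towards 0. They lay above the median too, but with a pseudocount of 0.1 Fosb fell to -0.32, under an all-gene median of -0.27. Jun was at -0.14, Arc at -0.02, Fos at 0.00, Nr4a1 at 0.03, Egr1 at 0.07, Ier2 at 0.17 and Junb at 0.54. Relative to the all-gene median this became 0.09 for Jun and 0.78 for Junb, and 1.33% of all genes had a higher log2 ratio than Junb.

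**Figure D2:**
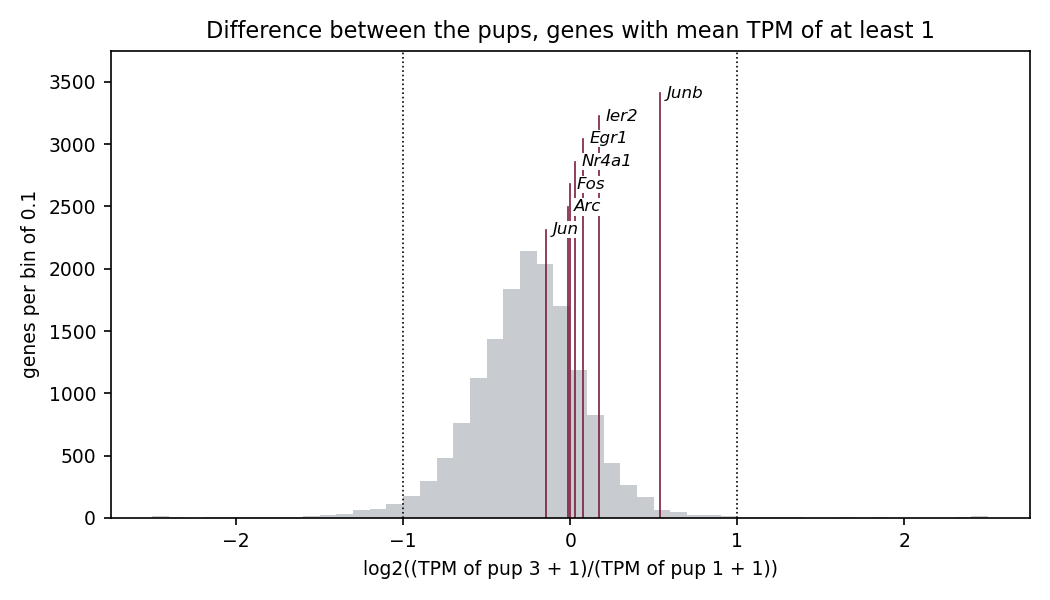
Histogram of the log2 ratio of pup 3 over pup 1 for the 15463 genes with a mean of at least 1 TPM (grey bars, genes per bin of 0.1; values past 2.5 are drawn in the end bins), with lines for the 7 immediate early genes in that set; dotted lines mark 2-fold. The 7 lines lie to the right of the median of all genes (-0.24), between -0.14 for Jun and 0.54 for Junb.

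Scaling decides the sign of the small differences. With TMM scaling or DESeq2 size factors all 10 genes were higher in pup 3, and on the TPM scale 6 were, while Junb was higher in pup 3 in each setting run, from 0.40 to 0.83. Blood genes were higher in pup 3 as well: Hba-a2 was at 983.96 and 1340.64 TPM and Hbb-bs at 625.67 and 954.30 TPM in pups 1 and 3, and the log2 ratio of the summed level was 0.50. Of the 5 meningeal and fibroblast markers, Dcn (42.10 and 68.33 TPM) and Lum (7.76 and 12.39 TPM) were higher in pup 3, while Col3a1 (46.56 and 44.60 TPM), Col1a2 (35.71 and 31.46 TPM) and Col1a1 (35.77 and 26.37 TPM) were lower, and the summed level was 167.9 and 183.2 TPM. The 7 endothelial markers summed to 174.9 and 169.7 TPM and the 7 microglial markers to 197.2 and 202.2 TPM. Single markers went both ways. Kdr (10.37 and 6.42 TPM), Flt1 (8.34 and 5.09 TPM) and Cx3cr1 (8.72 and 4.05 TPM) were lower in pup 3. Cldn5 (103.92 and 108.91 TPM) and C1qb (55.66 and 62.21 TPM) were higher. The 8 neuronal markers summed to 3777 and 3432 TPM, with Neurod6 higher in pup 3 (196.84 and 315.67 TPM) and Snap25 lower (229.58 and 135.95 TPM). The 6 astrocyte and radial glia markers summed to 2662 and 2709 TPM, with Gfap (43.50 and 25.30 TPM) and Aqp4 (31.28 and 18.31 TPM) lower in pup 3 and a median log2 ratio of -0.40. The part of these cell types in the level of Junb was not tested.

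A pair of the genes share sequence with neighbours on the opposite strand, and whether the counting used strand is not given in the sources used here. Of the 3189 exon bases of Jun, 232 lie in exons of the antisense gene Junos, which was at 1.53 in pup 1 and 0.86 TPM in pup 3. Its 23.53 and 13.43 expected counts are few beside the counts of Jun. Prdx2, a peroxiredoxin at 804.41 and 882.75 TPM, overlaps the noncoding transcript Junb-202, which received 0 and 1.07 expected counts, and shares 0 exon bases with Junb-201. The expected counts of 8 of the 10 genes were exact whole numbers in both pups, and those of Jun and Junb were not.

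Most genes were read from 1 dominant coding transcript. Jun and Ier2 have 1 annotated transcript each, and Junb-201 carried 100% and 99.3% of the TPM of Junb. Egr1-202 carried 91.5% of Egr1 in pup 1 and 89.4% in pup 3, and Egr1-201, which encodes the same 533 codons, the rest. Fos-201 carried 86.2% and 87.4% of Fos, and the remainder fell on the processed transcripts Fos-203 and Fos-204. Arc-201 carried 68.8% and 76.8% of Arc, and Arc-202 the rest. Both Arc transcripts encode the same 396 codons and differ by only 3 and 2 exon bases, so reads that tell them apart are few.

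**Figure D3:**
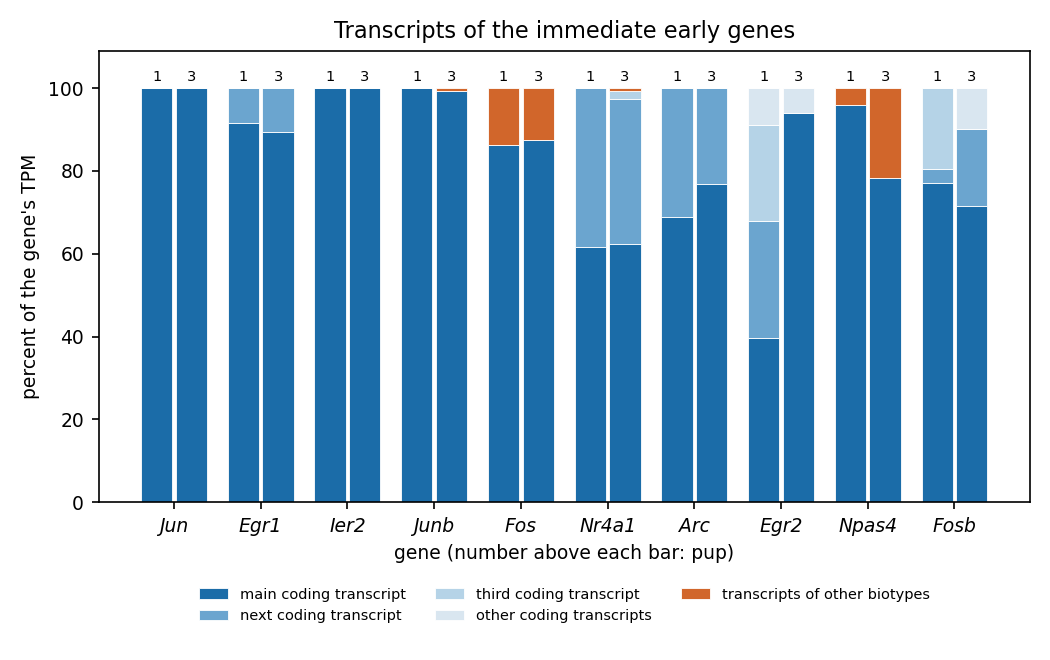
Share of each gene's TPM by transcript in pup 1 and pup 3 (stacked bars, percent; the number above a bar is the pup), with coding transcripts in blue, ranked by mean share, and transcripts of other biotypes in orange. Jun and Ier2 are single bars of 100%, Nr4a1 is split between 2 coding transcripts in both pups, and the bars of Egr2, Npas4 and Fosb differ between the pups.

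The TPM of Nr4a1 was divided between 2 main coding transcripts in both pups. Nr4a1-201 carried 61.5% of its TPM in pup 1 and 62.5% in pup 3, and Nr4a1-202 carried 38.5% and 34.9%. In the M4 table Nr4a1-201 is the only transcript of the gene and carried 100%, so the split rests on the newer annotation. M4 gave the gene 431 and 485 expected counts, and M21 gave it 441 and 497. Of the M21 counts, 173.08 and 181.14 were credited to Nr4a1-202, so most of those were credited to Nr4a1-201 in M4. The shares are thus an estimate from reads that mostly do not tell the 2 transcripts apart. The 2 transcripts encode the same 601 codons from annotated start sites 12577 bases apart. The promoter of Nr4a1-201, the downstream start, is shown because the larger share of the gene's estimated TPM began there. One of several Egr2 promoters is shown because among the 7 members with a window Egr2 alone held a CArG box, the core of the serum response element. Capitals mark the same motifs, with CGTCA as the half-site on the other strand.
Nr4a1 promoter, chr15:101266596-101266845, strand +: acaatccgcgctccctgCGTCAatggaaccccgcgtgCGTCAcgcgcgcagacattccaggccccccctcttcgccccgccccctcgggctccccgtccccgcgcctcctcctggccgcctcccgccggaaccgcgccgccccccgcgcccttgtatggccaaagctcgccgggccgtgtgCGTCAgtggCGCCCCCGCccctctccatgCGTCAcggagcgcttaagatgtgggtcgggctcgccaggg
Egr2 promoter, chr10:67537619-67537868, strand +: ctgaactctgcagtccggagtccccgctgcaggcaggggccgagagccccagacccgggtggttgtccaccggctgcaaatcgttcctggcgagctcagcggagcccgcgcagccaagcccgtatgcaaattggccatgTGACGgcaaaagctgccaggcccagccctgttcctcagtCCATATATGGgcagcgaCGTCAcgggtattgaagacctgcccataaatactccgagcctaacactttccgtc
The Nr4a1 window held 4 CRE half-sites and 1 EGR site. The Egr2 window shown, which ends at the start of Egr2-201, held 2 half-sites, 1 on each side of a CArG box, which occurs in 1.63% of all windows. Of the other Egr2 windows, that at chr10:67535249-67535548 held neither motif. The window at chr10:67537316-67537615 held a different CArG box and no half-site. Of these 7 members, 6 held a CRE half-site in at least 1 window (Jun did not), Npas4 with 2 matches among them. Over all windows the share was 20.8%. That share is per single window, while Egr2 could match in any of several, so the units are unlike and no excess was tested.

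Fosb-201, which encodes the full protein of 338 codons, carried 77.0% of the gene's TPM in pup 1 and 71.5% in pup 3, from 22.50 and 17.40 expected counts. Fosb-206 encodes 237 codons, the length of the truncated form known as ΔFosB, and received 1.54 expected counts in pup 1 and 0 in pup 3. It skips 140 coding bases of Fosb-201 (chr7:19305007-19305146, mm10, strand -), shown whole because reads that cross this stretch or its junction tell the 2 coding forms apart. In the junction of Fosb-206, the capitals mark the stop codon that the joining brings into frame.
Stretch skipped in Fosb-206: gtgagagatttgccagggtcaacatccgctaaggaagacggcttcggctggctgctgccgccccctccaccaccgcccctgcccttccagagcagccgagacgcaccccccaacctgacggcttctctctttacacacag
Junction in Fosb-206: gctggccgagTGAagttcaa
The skipped stretch begins with gt and ends with ag, as introns do. Fosb-207, of 201 codons, lacks the same stretch and received 0 expected counts in pup 1 and 2.24 in pup 3. Fosb-205, of 299 codons, holds the stretch and received 0.96 and 4.36. Forms with the stretch thus had 23.46 and 21.76 expected counts and forms without it 1.54 and 2.24, too few to compare the pups. M4 lists Fosb-201 alone.

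The other low genes had shares that rest on few reads too. Egr2-201 carried 39.5% of Egr2 in pup 1 and 93.9% in pup 3, from 26.06 and 78.41 expected counts, and Egr2-202 carried 28.4% and 0%. Npas4-201, the transcript of the full 802 codons, carried 96.0% and 78.4% of Npas4, and the transcript Npas4-203, annotated as a target of nonsense-mediated decay, took the rest from 0.73 and 4.98 expected counts. These shifts between the pups amount to a few reads for Npas4, and intervals for the shares were not used here.

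Related genes from 6 lists were measured beside the 10. For scale, 61.17% of all protein-coding genes had a mean of at least 1 TPM, a looser rule than the 1 TPM in both pups counted for the lists. Among 13 AP-1 partners and relatives, 7 reached 1 TPM in both pups, 9 had a mean of at least 1 TPM and the median was 2.87 TPM. Jund, the JUN gene that is expressed steadily, was at 94.31 and 85.89 TPM and so above Jun in both pups, and Atf4, the factor of the integrated stress response, was at 90.42 and 82.28 TPM. Atf2, a CRE-binding partner of Jun, was at 72.87 in pup 1 and 29.58 TPM in pup 3 and was the 1 gene of the list over 2-fold apart on the log2(TPM + 1) scale. Mafg, a small MAF protein, was at 32.80 and 19.58 TPM, and Fosl1, the FOS relative Fra-1, was the lowest at 0.02 and 0.17 TPM. On TPM without the pseudocount, Fosl1 and Jdp2 (0.20 and 0.48 TPM) were over 2-fold apart too, from 1.07 to 18.46 expected counts. The share of all genes over 2-fold apart without the pseudocount was not computed. The genes named on that scale, here and in the lists below, thus have no background to be read against.

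All 9 EGR and NR4A relatives, corepressors and bHLH-PAS partners reached 1 TPM in both pups, with a median of 5.73 TPM. Arnt2, the neuronal partner of Npas4, was at 51.14 and 40.01 TPM, far above Npas4 itself. Nr4a2, the receptor needed for dopamine neurons, was the 1 gene over 2-fold apart on the log2(TPM + 1) scale, at 49.09 in pup 1 and 19.93 TPM in pup 3, both above Nr4a1. Without the pseudocount, Nab1 (7.82 and 3.64 TPM) and Arnt (6.48 and 3.18 TPM) passed 2-fold too. Npas3 was at 13.75 and 9.34 TPM, Nr4a3 at 10.26 and 7.27 TPM, and Egr4 the lowest at 1.55 and 1.59 TPM.

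All 26 genes of the upstream list, mostly kinases, coactivators and transcription factors of the signal, reached 1 TPM in both pups, with a median of 17.3 TPM. Mef2c, a MEF2 factor of cortical neurons, was at 308.41 and 418.99 TPM, and Rheb, the GTPase that activates mTOR, at 276.72 and 271.93 TPM. The ERK kinase Mapk3 was at 109.53 and 93.51 TPM. Srf, which binds the CArG box, was the lowest at 1.95 and 1.84 TPM, and Camk4, the nuclear CREB kinase, was the 1 gene over 2-fold apart on the log2(TPM + 1) scale, at 30.75 and 14.83 TPM. Without the pseudocount, Atf1 (7.61 and 3.65 TPM) passed 2-fold too.

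Genes that end the signal or the message were present as well. All 13 rapid feedback genes reached 1 TPM in both pups, with a median of 15.4 TPM and none over 2-fold apart. Spry2 (46.84 and 39.68 TPM) and Dusp6 (31.95 and 34.74 TPM), both brakes on ERK signalling, stood highest by mean level, followed by Zfp36l1 (30.60 and 34.81 TPM), which speeds the decay of AU-rich messages, and the phosphatase Dusp1 (29.76 and 30.58 TPM). Zfp36 was the lowest at 3.10 and 1.85 TPM.

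Of 24 other early and activity-induced genes, 23 reached 1 TPM in both pups, with a median of 11.005 TPM and none over 2-fold apart on the log2(TPM + 1) scale. Lmo4 (193.43 and 205.44 TPM), the kinase Plk2 (179.43 and 176.88 TPM), the secretogranin Scg2 (152.66 and 107.85 TPM) and Klf6 (120.87 and 79.48 TPM) stood highest, each above Jun. Ptgs2, which encodes cyclooxygenase 2, was the lowest at 0.17 and 0.06 TPM, over 2-fold apart without the pseudocount on 19 and 8 expected counts. Of 6 heat shock and stress genes, 5 reached 1 TPM in both pups, with a median of 9.78 TPM and none over 2-fold apart. Dnajb1 was at 53.78 and 32.33 TPM, Ddit3 (the first of 2 entries with that symbol) at 15.80 and 16.36 TPM, Hmox1 at 11.93 and 10.56 TPM and Hspb1 at 9.29 and 7.35 TPM, and Hspa1b was the lowest at 0.35 and 0.41 TPM. Hspa1a and Hspa1b are near-identical copies, so the split of reads between them is uncertain.

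**Figure D4:**
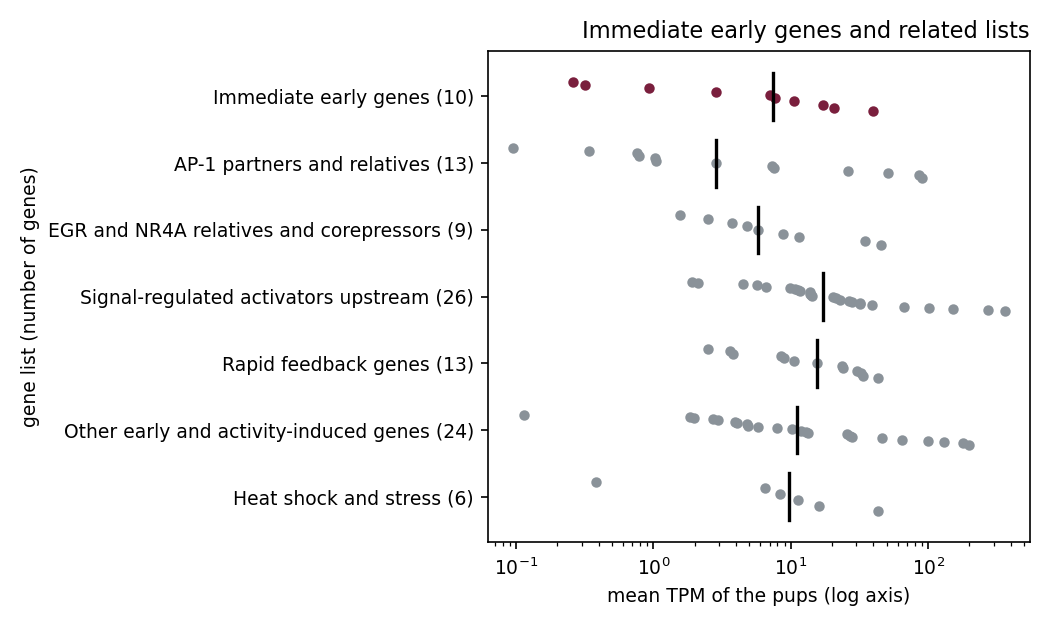
Mean level of each gene over the 2 pups (points, TPM on a log axis) for the 10 immediate early genes and 6 lists of related genes, with the median of each list as a black bar. The immediate early genes span 0.26 to 39.35 TPM around a median of 7.38 TPM, and the upstream list has the highest median, 17.3 TPM.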

How the data were processed

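The authors deposited gene and transcript tables for mm10 with annotation releases M21 and M4. They hold estimated counts (in columns named for expected counts, with reads of several map positions split), deposited TPM and FPKM as point estimates and posterior means, credibility intervals, and, in the transcript tables deposited by the authors, the percent of a gene's TPM in each of its transcripts. Neither aligner nor quantifier is given in the sources used here, and the header resembles that of RSEM. Per the labels, reverse transcription started from oligo-dT and tagmentation cut the product.

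The M21 tables were used, with symbols, biotypes and coordinates from GENCODE M21. Differences between the pups are log2((TPM + 1) in pup 3/(TPM + 1) in pup 1). Detection required a TPM of 1, and genes over 2-fold apart were counted as different. Errors are SDs over 2 pups. Ratios of rounded expected counts carry exact 95% binomial intervals, which cover counting error only, since the tables hold no molecular identifiers. Pair ratios used TPM with a pseudocount of 0.1 for the log scale. The ratio code was tested on simulated data with counting noise alone. The simulation left out genes with as few counts as Fosb, Npas4 and Egr2. Scaling factors came from edgeR 4.0.16 (TMM) and DESeq2 1.42.0 in R 4.3.3, on expected counts rounded to whole numbers; everything else was computed in Python 3.11.15 with scipy 1.17.1. Motifs were searched in RefSeq promoter windows (250 bases before to 50 after a start, GRCm38.p6), of which 7 members had at least 1; sequence past the first annotated exon base is not shown.

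The members and the lists were chosen with earlier results of these data known. Named genes are the 10 members, the 4 highest, the lowest and any gene over 2-fold apart in each related list, and the 2 nearest genes to the highest and the lowest member; marker genes, the overlapping genes Junos and Prdx2, and Jdp2, Nab1, Arnt and Atf1 were named after their values were seen. A gene that the rule would name is not reported here. Alternatives changed the pseudocount, the TPM minimum, unit, scaling, release, estimate and the pup left out.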

Additional observations from a re-analysis of the deposited data

How the results depend on the processing

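With 2 pups of 1 group, spread between animals is poorly known and no call by a test exists to be lost. The list median of 7.38 TPM became 7.64 TPM in the M4 table, 7.57 TPM with posterior means and 8.36 TPM over protein-coding genes alone, and ran from 7.34 to 7.42 TPM with either pup left out. Detected members numbered 7, with 8 at a minimum of 0.5 TPM or with posterior means and 6 at a minimum of 5 TPM. The median log2 ratio of 0.03 became 0.14 in FPKM, 0.15 in CPM without scaling, 0.27 with TMM scaling, 0.29 with DESeq2 size factors and 0.27 with the all-gene median removed; the all-gene median itself ranged from -0.27 to 0.03. All 10 members stayed above the all-gene median in each setting except with a pseudocount of 0.1, where 9 did and Fosb did not. In the main setting Egr2, Npas4 and Fosb lie outside the genes over which that median was taken. None was over 2-fold apart in any setting. The share of genes over 2-fold apart fell from 2.83% to 0.994% without a filter on low values, since many genes near 0 enter. Of the 10 genes' levels, 8 moved by more than 1 SD over protein-coding genes alone, and 5 each in M4 and with posterior means. No ratio between family pairs changed direction, but sizes moved. With a pseudocount of 1 in place of 0.1, the mean log2 ratio went from 4.44 to 2.78 for Fos over Fosb, from 4.33 to 3.48 for Egr1 over Egr2 and from 2.83 to 1.55 for Arc over Npas4. With expected counts, which are not per length, Jun over Junb went from 1.93 to 2.79 and Jun over Fos from 2.34 to 3.11. Posterior means raised Fosb from 0.26 to 0.405 TPM and Egr2 from 0.935 to 1.55 TPM, with Egr1 over Egr2 at 3.62. In the M4 transcript table Nr4a1-201, Fosb-201 and Npas4-201 carried 100% of their genes, each the only transcript listed; the other 7 leading shares moved by no more than their SD. Removing the median of genes of like length, an alternative chosen after seeing the data, moved the log2 ratio of 4 members by more than counting error. No paired analysis was possible because there is 1 group. Depth limits Fosb, Npas4 and Egr2, which rest on 24 to 79 expected counts per pup.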
